A study of Homo sapiens with 33 samples.

Results

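SCC1 (UM-SCC-1) is an established head and neck squamous cell carcinoma line, and the values below follow it through 5 days of culture in which it received PBS, the vehicle, in place of drug. The members are the SCC1 PBS RNA-seq libraries collected on days 0, 1, 2, 3 and 4, 5 libraries of the 33 in the series, chosen because the labels place them on 1 flow cell. The SCC1 PBS library of day 5 was sequenced on another flow cell and is used only as a check. The study followed 3 such lines, SCC1, SCC6 and SCC25, with PBS or with cetuximab, an antibody against the epidermal growth factor receptor (EGFR), at 100 nM. All the cells were kept in medium with serum, which for SCC1 and SCC25 also held hydrocortisone, a glucocorticoid. Treatment began a day after seeding and the medium was renewed daily, so the PBS arm was written down as the untreated control and differs from day to day in time since seeding. Each line is a single established line, each day has 1 library, and cell number at collection was not used here.

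Epithelial cells in culture talk to themselves and to each other through secreted factors. Interleukin 1 (IL1A, IL1B) binds a receptor that activates NF-kB, a family of transcription factors that enters the nucleus and turns on cytokines, chemokines and its own inhibitors. Ligands of EGFR, shed from the cell surface, act through the ERK kinase cascade, whose output genes include phosphatases and adaptor proteins that restrain it. Interferons act through STAT and IRF factors and turn on a distinct set of antiviral genes. All 3 systems are active in squamous epithelium, which also carries a keratin and desmosome programme that changes between its basal and its upper layers.

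The libraries held 36337093 to 47225163 estimated counts, and mitochondrially encoded genes took 3.94 to 4.30% of them. Levels are given as CPM, a gene's count over the library's total after TMM scaling. The basal squamous markers were present in every library, with KRT5, the keratin of basal cells, at 297 to 1117 CPM and TP63, the basal transcription factor, at 102 to 151 CPM, although SOX2 reached only 0.116 CPM before TMM. Of 10 fibroblast markers 6 stayed below 1 CPM throughout, among them COL3A1, DCN, PDGFRA and THY1, and the 10 together summed to 53.6 to 80 CPM before TMM, most of it FAP. Of 10 leukocyte and endothelial markers 7 stayed below 1 CPM, with PTPRC (CD45) at no more than 0.0847, while the sum of the 10 went from 27.6 on day 0 to 57.5 on day 3, carried by CD68, KDR and CD14. The part of these markers in the results was not tested, and in bulk RNA fewer cells of a kind and less RNA per cell cannot be told apart. The first principal component of the 5 libraries held 72.7% of the variance, and its scores ran -23.5, -11.3, 7.15, 14.2 and 13.4 from day 0 to day 4. Day 0 was in lane 1 and days 1 to 4 were in lane 2 of the flow cell, so lane and the first day cannot be told apart, and values without day 0 are within 1 lane.

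Expression was fitted against day as a number, and the slope is the log2 change per day with its standard error (SE). With 1 library a day the error is the scatter of the libraries about a straight line, which may be technical, and the labels do not say that the days were separate cultures. The test was edgeR's quasi-likelihood F test, two-sided, with Benjamini-Hochberg adjustment over all genes tested and a threshold of 0.05. Of 18796 genes tested 1575 passed (8.38%), of which 981 rose (5.22%) and 594 fell (3.16%). These shares are the background for the list counts below. At an unadjusted p under 0.05 the background was 5284 of the 18796 genes, in either direction. When libraries were scaled by total counts alone, 673 rose and 1197 fell. The largest step of a gene that passed was most often that from day 1 to day 2, for 872 of the 1575 (55.4%, against 33.8% of all genes tested). The count was 117 without day 0, 169 without day 1, 252 without day 3 and 2774 without day 4. Named rises and falls below are therefore given with their days, and 21 of the 137 named genes that passed also did so under each alternative tried, namely CSF3, IL1B, CXCL1, CXCL2, CXCL8, CCL20, LIF, IL6, IL11, ICAM1, TNFAIP3, BIRC3, SOCS3, DUSP1, IRF7, KDR, PKP1, LYSMD4, COL5A1, COL6A2 and COL7A1.

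Promoters of some cytokine and interferon genes are shown here as examples. They were picked among genes that rose and held the motif described below, so a match in each was fixed beforehand. CSF3, IL1B, IL1A and LIF are not among them. Of 16 NF-kB cytokine genes that rose and had a promoter sequence 12 held the kappaB motif. Of 14 such interferon-stimulated genes 9 held the interferon motif. The sequences are RefSeq's, on build GRCh38.p14, and hold the 150 bases before the start site, 5′ to 3′ on the gene's strand. Capitals mark matches, on either strand, to GGNNNTTCC, a form of the kappaB site that NF-kB binds, in the first 6 and to GAAA, any 2 bases and GAAA, a form of the interferon-stimulated response element, in the last 3.
CXCL8 (chr4:73740419-73740568, plus strand): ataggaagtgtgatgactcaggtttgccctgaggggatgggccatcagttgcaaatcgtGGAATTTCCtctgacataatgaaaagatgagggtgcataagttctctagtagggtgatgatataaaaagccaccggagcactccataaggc
CXCL1 (chr4:73869243-73869392, plus strand): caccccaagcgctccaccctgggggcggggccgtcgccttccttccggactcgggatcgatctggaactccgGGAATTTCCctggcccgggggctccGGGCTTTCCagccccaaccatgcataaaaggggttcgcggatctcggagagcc
CXCL2 (chr4:74099196-74099345, minus strand): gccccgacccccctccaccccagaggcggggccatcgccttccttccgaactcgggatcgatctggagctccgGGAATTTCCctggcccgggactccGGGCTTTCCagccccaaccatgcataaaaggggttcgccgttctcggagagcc
CXCL3 (chr4:74038690-74038839, minus strand): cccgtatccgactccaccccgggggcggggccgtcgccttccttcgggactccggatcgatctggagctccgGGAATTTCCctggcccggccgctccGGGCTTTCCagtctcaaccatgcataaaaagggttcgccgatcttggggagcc
CCL20 (chr2:227813692-227813841, plus strand): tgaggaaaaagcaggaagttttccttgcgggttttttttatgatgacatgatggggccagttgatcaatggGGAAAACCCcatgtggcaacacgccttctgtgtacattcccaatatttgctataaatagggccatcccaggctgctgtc
TNFAIP3 (chr6:137867109-137867258, plus strand): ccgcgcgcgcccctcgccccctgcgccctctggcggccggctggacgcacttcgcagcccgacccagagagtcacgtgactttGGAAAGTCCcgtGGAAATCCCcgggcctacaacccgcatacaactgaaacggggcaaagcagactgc
IFIT1 (chr10:89392473-89392622, plus strand): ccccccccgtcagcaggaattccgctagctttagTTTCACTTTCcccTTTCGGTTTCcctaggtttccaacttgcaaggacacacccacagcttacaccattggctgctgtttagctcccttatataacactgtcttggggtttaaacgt
ISG15 (chr1:1013347-1013496, plus strand): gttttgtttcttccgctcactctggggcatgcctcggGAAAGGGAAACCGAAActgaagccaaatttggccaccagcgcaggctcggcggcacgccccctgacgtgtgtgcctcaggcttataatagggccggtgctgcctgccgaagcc
DDX60 (chr4:168318753-168318902, minus strand): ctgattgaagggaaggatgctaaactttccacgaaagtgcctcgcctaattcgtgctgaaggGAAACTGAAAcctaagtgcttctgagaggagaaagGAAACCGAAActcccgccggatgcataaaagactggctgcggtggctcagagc
The 2 matches of ISG15 overlap. In the 250 bases before the start site, GGNNNTTCC was found in 13 of the 18 NF-kB cytokine genes tested that had a promoter in the table (72.2%), against 17.1% of all 27305 promoters and 19.6% of those of tested genes. The GAAA repeat was found in 20 of 33 interferon-stimulated genes (60.6%), against 3.07% of all promoters and 2.45% of those of tested genes. These lists were drawn up with the biology of the 2 factors in mind, so the shares describe the genes and are no test, and a match is not evidence of binding. The promoters of CXCL1, CXCL2 and CXCL3 are close copies, as are their transcripts, and their counts are uncertain to the extent that reads were split among them.

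Most cytokine and chemokine genes rose over the course, not all of them at every step. Of 22 genes tested in the list of NF-kB cytokines and targets 19 rose and none fell. The share that rose was 86.4%, against 5.22% of all genes tested. The median slope was 0.47 against -0.0070 over all genes tested. At an unadjusted p under 0.05 all 22 were higher with day, and by DESeq2's Wald test 21 rose. The list's median level, as a log2 change from day 0, was 0.52, 0.96, 1.32 and 1.99 on days 1 to 4. Leaving out day 0 left 12 that rose and leaving out day 1 left 14, with medians of 0.42 and 0.51.

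CSF3 (G-CSF), which drives neutrophil production and lies at chr17:38171614-38174066 of GRCh37, had the largest slope of the genes that passed, rose at every step and lay at a mean level no lower than 3 on the log2 CPM scale. Its level was 3.05, 8.54, 19.4, 46.4 and 121 CPM on days 0 to 4. The slope was 1.30 ± 0.030 (adjusted p = 5.49e-07), a fitted 36.9-fold rise over 4 days, and each day lay above the one before. IL1B, the secreted form of interleukin 1, stood at 111, 255, 497, 604 and 734 CPM, with each day above the one before. Its slope was 0.66 ± 0.086 (adjusted p = 0.00911). IL1A, which is held largely inside the cell, followed with 192, 405, 641, 742 and 754 CPM and a slope of 0.48 ± 0.085 (adjusted p = 0.01898), but did not pass without day 0, 1 or 3.

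The neutrophil chemokines kept rising to day 4. CXCL8 (interleukin 8) was at 39.2, 58.3, 77.8, 124 and 190.4 CPM, a slope of 0.57 ± 0.025 (adjusted p = 7.55e-05). CXCL1 changed little between days 0 and 1 and then rose at each step, with 32.7, 34.6, 63.01, 105 and 182 CPM and a slope of 0.65 ± 0.050 (adjusted p = 0.00174). CXCL2 went from 9.45 to 39.3 CPM and CXCL3, at far lower levels, from 1.27 to 4.72 CPM. CCL20, which attracts lymphocytes and dendritic cells through CCR6, was at 8.26, 14.04, 23.2, 32.03 and 49.1 CPM, with a slope of 0.63 ± 0.033 (adjusted p = 1.31e-04). In CXCL8, CXCL1 and CCL20 every day lay above the day before it.

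Cytokines that signal through gp130 formed a further group. LIF rose from 35.6 to 161 CPM (slope 0.57 ± 0.028, adjusted p = 1.05e-04), IL6 from 12.96 to 38.95 CPM (slope 0.39 ± 0.055, adjusted p = 0.0104) and IL11 from 8.698 to 19.7 CPM (slope 0.31 ± 0.037, adjusted p = 0.008899). SOCS3, the feedback inhibitor of gp130 signalling, was at 7.05, 9.96, 16.7, 22.8 and 32.3 CPM (slope 0.56 ± 0.033, adjusted p = 2.68e-04). For IL6 the first 3 days lay within 12.96 to 15.6 CPM and the rise came on days 3 and 4. IL24 reached 52.3 CPM by day 2 from 11.3 CPM and then held (51.2 CPM on day 4), and it did not pass without day 0, 1 or 3. CSF1, the macrophage growth factor, rose least of the list, with a slope of 0.16 ± 0.038 (adjusted p = 0.0409). CSF2, CCL5 and TNF did not pass, with adjusted p of 0.0736, 0.0663 and 0.161 and no more than 1.76, 5.81 and 1.09 CPM.

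Inhibitors of NF-kB, themselves in the cytokine list, rose with slopes below the list's median of 0.47 but above that of CSF1 (0.16). TNFAIP3 (A20), the enzyme that shuts off signalling to NF-kB, was at 158, 201, 257, 312 and 347 CPM, a slope of 0.29 ± 0.025 (adjusted p = 0.003197). NFKBIA, the inhibitor that holds NF-kB in the cytoplasm, rose from 101 to 213 CPM (slope 0.25 ± 0.036, adjusted p = 0.01096), a call lost without day 0. ICAM1, the adhesion receptor for leukocyte integrins, rose from 88.4 to 299.9 CPM and BIRC3, an inhibitor of apoptosis, from 21.3 to 45.3 CPM. Fitted over 4 days, TNFAIP3, NFKBIA, ICAM1 and BIRC3 rose 2.24-, 2.002-, 3.34- and 2.1-fold.

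Other genes with the largest rises that went up at every step were HIC1, a transcriptional repressor (2.22 to 14.2 CPM, slope 0.66 ± 0.091), ADAM8, a membrane protease (23.5 to 106 CPM, slope 0.60 ± 0.098), DUSP1, a phosphatase of MAP kinases (10.1 to 46.6 CPM, slope 0.57 ± 0.042), ALOX5AP, which serves leukotriene synthesis (4.503 to 20.4 CPM, slope 0.53 ± 0.094), and LTB, lymphotoxin beta (7.07 to 34.9 CPM, slope 0.53 ± 0.079). Their adjusted p ran from 0.00154 for DUSP1 to 0.01895 for ALOX5AP. All but DUSP1 lost the call without day 0, and HIC1 stood at 5.42 CPM on day 5, less than on day 2.

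**Figure D1:**
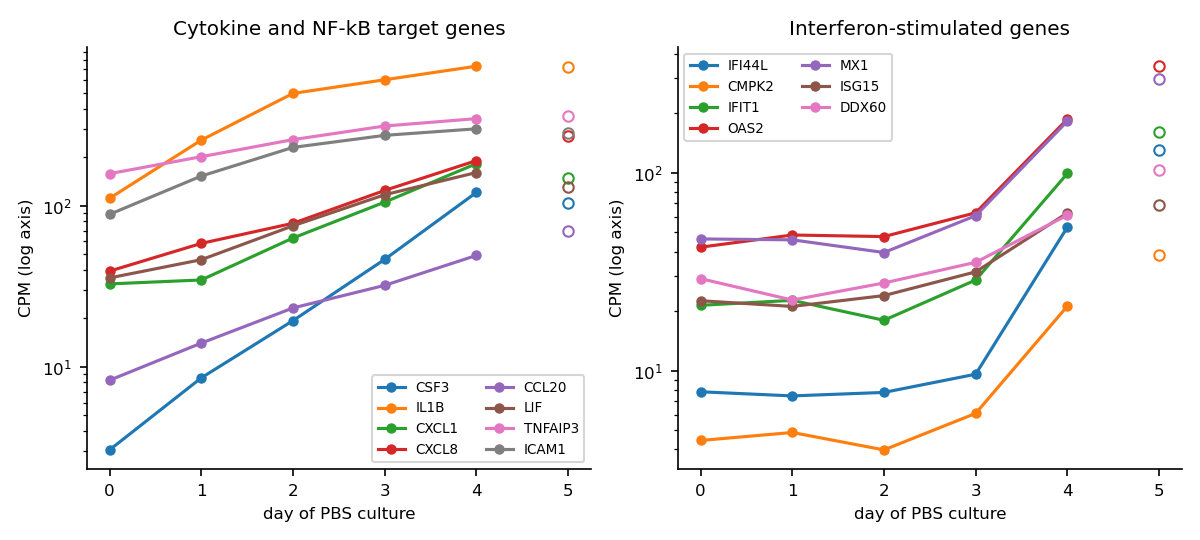
CPM on a log axis against day for 8 cytokine and NF-kB target genes (left) and 7 interferon-stimulated genes (right) in SCC1 PBS culture; filled points are the single libraries of days 0 to 4 and open points the library of day 5 on another flow cell. CSF3 climbs from 3.05 to 121 CPM with no day out of order, while the interferon-stimulated genes lie nearly flat to day 2 and rise mostly between days 3 and 4.

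Interferon-stimulated genes had another course, nearly flat for 3 days and then steep. Of 42 tested 20 rose (47.6%, against 5.22% of all genes tested) and none fell, with a median slope of 0.28. At an unadjusted p under 0.05 35 were higher with day. DESeq2's Wald test called 13. The list's median level, as a log2 change from day 0, was -0.077, -0.073, 0.19 and 1.19 on days 1 to 4. A straight line describes such a course poorly, and without day 4 the counts were 6 rising and 1 falling with a median slope of 0.054. Without day 1 only 3 rose, without day 0 7 rose and without day 3 10 rose.

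IFI44L, an interferon-stimulated gene at chr1:79085587-79111830 of GRCh37, showed the course most plainly, at 7.82, 7.45, 7.76, 9.59 and 53.1 CPM. Its slope was 0.67 ± 0.15 (adjusted p = 0.0376), and days 0 to 3 lay together with day 4 alone above them. The antiviral effectors had courses of the same shape. IFIT1, which binds foreign RNA, was at 21.4, 22.7, 17.97, 28.7 and 99.2 CPM, OAS2, which makes the activator of RNase L, at 42.1, 48.5, 47.6, 62.8 and 187 CPM, and MX1, which blocks viral assembly, at 46.3, 45.8, 39.5, 60.7 and 182 CPM. Their slopes were 0.52, 0.49 and 0.46 (adjusted p = 0.0432, 0.0249 and 0.0433). CMPK2, a mitochondrial nucleotide kinase, went from 4.44 to 21.2 CPM, ISG15, the ubiquitin-like modifier, from 22.6 to 62.7 CPM and DDX60, an RNA helicase, from 29.2 to 61.1 CPM. Leaving out day 4 ended the call of each of these but OAS2, leaving out day 1 ended the call of all 7, and DESeq2 did not call IFI44L, IFIT1, MX1, CMPK2 or DDX60.

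The factors that carry the interferon signal rose more evenly. IRF7, which amplifies interferon production, was at 14.2, 15.9, 24.4, 27.1 and 47.99 CPM (slope 0.43 ± 0.044, adjusted p = 0.00483) and passed under every alternative. IRF9, the DNA-binding part of the STAT complex, was at 23.7, 27.2, 30.3, 34.4 and 53.9 CPM (slope 0.28 ± 0.039, adjusted p = 0.0109), a call lost without day 0. IRF1 did not pass, with a slope of 0.035 ± 0.036. CXCL10 and CXCL11, chemokines of the cytokine list that interferons also induce, took the late course, with 1.19, 3.15, 1.98, 2.85 and 13.2 CPM and 2.31, 3.29, 2.36, 3.53 and 10.2 CPM, and neither passed without day 4. IFI6 stood at 56.7 CPM on day 0, at 19.2 on day 2 and at 86.3 on day 4, a course with no slope that passed (adjusted p = 0.601).

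Genes that load peptides onto MHC class I rose in part and slightly. Of 16 tested 4 rose (25%, against 5.22% of all genes tested) and none fell, with a median slope of 0.083. At an unadjusted p under 0.05 12 were higher. TAP1, the peptide transporter, rose from 63.4 to 117 CPM, TAPBP, which tethers it, from 184 to 279.9 CPM, and ERAP2, a trimming peptidase, from 151 to 221 CPM. HLA-E, which shares sequence with the other HLA genes, had the smallest slope of the 4, 0.11 ± 0.022 (adjusted p = 0.0246). None of the 4 passed without day 0.

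Some output genes of the ERK cascade rose, with most of the change by day 2. Of 18 tested 8 rose (44.4%, against 5.22% of all genes tested) and none fell, with a median slope of 0.23. At an unadjusted p under 0.05 11 were higher. The list's median level, as a log2 change from day 0, was 0.28, 0.83, 0.93 and 0.77 on days 1 to 4. Within lane 2, without day 0, none passed and the median slope was 0.16, and without day 1 none passed either. EPHA2, a receptor kinase, was at 139.7, 208, 355, 443 and 415 CPM (slope 0.43 ± 0.065, adjusted p = 0.0131) and IER3, an early response gene, at 86.5, 123, 211, 272 and 259.9 CPM (slope 0.44 ± 0.060, adjusted p = 0.0101). The feedback phosphatases DUSP4 and DUSP5 peaked on day 3, at 164 and 121 CPM from 65.5 and 49.3 on day 0, and SPRY4 and PHLDA1 did the same. FOSL1, a subunit of AP-1, rose from 117 to 240.3 CPM and MYC from 103 to 175 CPM. DUSP6 did not pass (adjusted p = 0.0861), and EGR1, which responds within minutes, was highest on days 1 and 2 and had a slope of -0.085 ± 0.11 (adjusted p = 0.643).

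The ligands that act upstream of this cascade rose too, 4 of 7 tested with none falling and a median slope of 0.18. The share that rose was 57.1%, against 5.22% of all genes tested. HBEGF was at 22.7, 36.99, 76.2, 114 and 110.5 CPM (slope 0.62 ± 0.076, adjusted p = 0.008899), AREG at 163, 222, 267, 352 and 332 CPM (slope 0.27 ± 0.039, adjusted p = 0.0108) and TGFA went from 166 to 269 CPM. EREG rose only from day 3 (24.4, 26.03, 23.5, 32.7 and 41.2 CPM). None of the 4 passed without day 0, where none of the 7 rose and 1 fell, with a median slope of 0.12. EGFR itself was at 635, 617, 657, 666 and 632 CPM, with a slope of 0.010 ± 0.023 (adjusted p = 0.808), positive here and negative (-0.021) when libraries were scaled by total counts alone.

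Genes of matrix breakdown rose in part. Of 19 metalloproteinases, plasminogen activators and inhibitors tested 4 rose and 1 fell, with a median slope of 0.10. The share that passed was 26.3%, against 8.38% of all genes tested. MMP1, the interstitial collagenase at chr11:102660132-102668891 of GRCh37, was at 3.58, 2.99, 13.3, 27.5 and 30.96 CPM (slope 0.92 ± 0.12, adjusted p = 0.00943), low on the first 2 days and high on the last 3. MMP3, stromelysin, rose from 4.77 to 12.8 CPM, PLAUR, the urokinase receptor, from 32 to 101 CPM and PLAU, urokinase, from 802 to a peak of 1911 CPM on day 3. TIMP3, an inhibitor bound to the matrix, fell from 128 to 57.1 CPM (slope -0.33 ± 0.054, adjusted p = 0.0153). MMP9 was at 19.4, 86.5, 198, 166 and 140.3 CPM, peaked on day 2 and did not pass (adjusted p = 0.128). Without day 0 none of these genes passed.

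Matrix and mesenchymal genes moved in both directions. VIM, the intermediate filament vimentin, was at 88.7, 117, 223, 259 and 254 CPM (slope 0.42 ± 0.066, adjusted p = 0.0138), lower on days 0 and 1 than on days 2 to 4, and the call was lost without day 0 or day 1. ITGA5, a fibronectin receptor subunit, rose from 199 to 463 CPM. FN1, fibronectin, fell from 11750 to 7848 CPM, TGFBI from 1752 to 999 CPM and SPARC from 225 to 140.1 CPM. The call was lost without day 0, 1 or 3 for ITGA5 and without day 1, 3 or 4 for FN1. It was lost without day 3 for TGFBI and without day 0 or 3 for SPARC, and with day 5 added for each of these genes. SNAI1, a repressor of epithelial genes, rose with a slope of 0.33 ± 0.079 (adjusted p = 0.0395). SNAI1 was at 1.25, 1.66, 2.93, 2.57 and 3.32 CPM, and its call too was lost when any library but that of day 2 was left out. In all 3 of 21 mesenchymal genes rose and 3 fell (28.6% passed, against 8.38% of all genes tested). Without day 0 none rose and 3 fell, SPARC not among them. Of 18 collagens tested 2 rose and 3 fell, a share of 27.8% against 8.38% of all genes tested. COL6A2 was at 15.1, 16.02, 25.4, 31.6 and 39.05 CPM (slope 0.37 ± 0.036, adjusted p = 0.00435) and its partner COL6A1 rose from 13.1 to 28.9 CPM. COL7A1, the anchoring fibril collagen of the epidermal basement membrane, was at 325, 306, 258, 150.5 and 133 CPM (slope -0.36 ± 0.045, adjusted p = 0.008899) and COL5A1 fell from 77.1 to 28.99 CPM. COL4A5, a basement membrane collagen, fell with a slope of -0.11 ± 0.028 (adjusted p = 0.0424), a call lost when any library but that of day 2 was left out.

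Where the mean level was no lower than 3 on the log2 CPM scale, the largest fall that went down at every step was that of IGF2, an insulin-like growth factor at chr11:2150342-2179621 of GRCh37, which was at 104, 67.2, 29.1, 23.6 and 21.8 CPM. Its slope was -0.60 ± 0.068 (adjusted p = 0.00762), with most of the fall done by day 2, and the call was lost without day 0. NPNT, nephronectin, a basement membrane ligand of integrins, was at 18.7, 18.5, 9.05, 5.29 and 5.195 CPM (slope -0.55 ± 0.071, adjusted p = 0.008899). OLFML2A went from 57.4 to 16.9 CPM, ZBED2 from 24.1 to 8.82 CPM, AJUBA, a LIM protein at cell junctions, from 219.9 to 109 CPM, and PKP1, a desmosome plaque protein, from 38.4 to 19.1 CPM. LYSMD4, EPB41L4B, SLC26A6, SERPINB7 and SLC22A23 had slopes of -0.31, -0.28, -0.28, -0.27 and -0.26. The adjusted p of these genes were 0.00762 to 0.0135. IGFBP3, which binds insulin-like growth factors, fell further but turned up on day 4 (83.9, 40.96, 19.2, 11.8 and 14.97 CPM, slope -0.68 ± 0.094, adjusted p = 0.0102), and did not pass without day 0. IGF1R, their receptor, fell slightly, from 112 to 79.8 CPM (slope -0.14 ± 0.027, adjusted p = 0.0249), and not without day 0, 1 or 3.

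Some keratins and desmosome genes fell, the keratins between day 1 and day 2. KRT5 was at 775, 1117, 438, 297 and 332 CPM (slope -0.45 ± 0.10, adjusted p = 0.0371) and KRT13, a keratin of internal squamous linings, at 7.62, 6.42, 1.69, 1.51 and 1.38 CPM (slope -0.73 ± 0.11, adjusted p = 0.0132). KRT6A, which shares sequence with KRT6B and KRT6C, was at 179, 205, 128, 100.1 and 97.5 CPM (slope -0.28 ± 0.050, adjusted p = 0.01895). For each the first 2 days lay above the last 3. ALPP, placental alkaline phosphatase, which has near-identical relatives, followed the same course (13.8, 13.6, 3.55, 2.61 and 2.28 CPM). The desmosomal DSC3 and PERP fell from 111 to 65.3 and from 408 to 259 CPM, and TP63 from 145 to 102 CPM (slope -0.15 ± 0.034, adjusted p = 0.036). KRT14 did not pass (slope -0.28 ± 0.075, adjusted p = 0.0545). LAMB3, a laminin chain, rose, from 762 to 1669 CPM, as did SERPINB2, an inhibitor of urokinase, from 961 to 1965 CPM. In all 1 of 15 basal markers rose and 3 fell, 2 of 32 cornification genes rose and 2 fell, and 4 of 27 junction genes rose and 3 fell. The shares that passed were 26.7%, 12.5% and 25.9%, against 8.38% of all genes tested. The median slopes of these lists were 0.0105, -0.0952 and 0.0448, against -0.00698 over all genes tested. KRT5 and KRT13 did not pass without day 0, KRT6A not without day 3, TP63, DSC3 and PERP not without day 0, 1 or 3, and KRT5 not by DESeq2.

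Genes that ATF4 turns on when amino acids are short fell in part. Of 30 tested 9 fell and 3 rose (40% passed, against 8.38% of all genes tested), with a median slope of -0.041. PHGDH, the first enzyme of serine synthesis, at chr1:120191034-120286841 of GRCh37, was at 127, 109, 86.8, 79.6 and 74.8 CPM (slope -0.20 ± 0.026, adjusted p = 0.00899). PSAT1, the next enzyme, fell from 118 to 70.7 CPM, ASNS, asparagine synthetase, from 103 to 57.98 CPM, and PSPH, SLC1A4, SLC3A2, SLC7A5 and STC2 had slopes of -0.17, -0.20, -0.15, -0.14 and -0.20. NUPR1 fell from 5.91 to 2.301 CPM. The 3 that rose were the transcription factors CEBPB (38.5 to 84.4 CPM), DDIT3 (28.5 to 42.6 CPM) and ATF5 (24.8 to 38.05 CPM), and ATF4 itself did not pass (slope 0.072 ± 0.026, adjusted p = 0.119). Without day 0 none of the 30 passed, and most of the fall of STC2 lay between days 0 and 1 (155, 98.2, 89.7, 88.2 and 82.2 CPM).

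Among genes of the unfolded protein response, most of them chaperones of the endoplasmic reticulum, 5 of 18 rose and none fell (median slope 0.11). The share that rose was 27.8%, against 5.22% of all genes tested, and all 18 slopes were above 0. At an unadjusted p under 0.05 15 were higher, and DESeq2 called 12. HSPA5 (BiP), the main chaperone, rose from 1070 to 1575 CPM (slope 0.15 ± 0.030, adjusted p = 0.0286), DNAJB9 from 31.01 to 70.1 CPM and SDF2L1 from 26.5 to 49.9 CPM. None of the 5 passed without day 0, 1 or 3.

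Glucocorticoid-responsive genes split. Of 17 tested 3 fell and 3 rose (35.3% passed, against 8.38% of all genes tested). TSC22D3 (GILZ), a mediator of steroid action, was at 22.5, 16.5, 10.6, 6.89 and 7.47 CPM (slope -0.44 ± 0.053, adjusted p = 0.008899), FKBP5, a chaperone partner of the receptor, fell from 181 to 108 CPM, and ZBTB16 was at no more than 1.82 CPM. KLF9 did not pass (slope -0.22 ± 0.058, adjusted p = 0.0549). The 3 that rose were DUSP1, ERRFI1 and NFKBIA, each of which other pathways also induce. None of the 3 falls passed without day 0.

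Of the metabolic lists, fatty acid synthesis (30.8% of its genes called), hypoxia (25%) and glycolysis (18.2%) held larger shares of called genes than all genes tested (8.38%), and cholesterol synthesis (8%) did not. FASN, fatty acid synthase, was at 272, 311, 365, 459 and 488 CPM (slope 0.22 ± 0.024, adjusted p = 0.00555), and SREBF1, a regulator of lipid synthesis, rose from 27.96 to 47.6 CPM. In all 3 of 13 fatty acid genes rose (FASN, SREBF1 and ACLY) and 1 fell (GPAM, slope -0.15), 2 of 25 cholesterol genes rose, MVD among them, and 4 of 22 glycolysis genes rose, HK1 most (slope 0.24 ± 0.039) and HK2 with it (slope 0.12 ± 0.025). Only FASN of these passed without day 0. Of 24 hypoxia genes 2 rose, VEGFA among them, and 4 fell, STC2 among them, and without day 0 none of the 24 passed.

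None of the DNA replication genes and 7.5% of the mitosis genes passed, against 8.38% of all genes tested. The mitosis genes that passed all fell, as did 3.16% of all genes tested. The edgeR test called none of 40 DNA replication genes. Unadjusted, 10 were lower and 1 higher at p under 0.05, against 5284 of all 18796 genes in either direction. DESeq2 called 4 lower, and MCM2 was at 267, 229.5, 216, 226 and 239 CPM. Of 40 mitosis genes 3 fell, ASPM (109 to 70.03 CPM), CENPE and CDC25C, with a median slope of -0.083 and 19 lower at an unadjusted p under 0.05, and CCNB1, cyclin B1, had a slope of -0.072 ± 0.050 (adjusted p = 0.377). Without day 4 the falls were 18 of 40 replication and 13 of 40 mitosis genes, and without day 2 they were 4 and 8. Without day 0, 1 or 3, or with day 5 added, no gene of either list passed. Of 23 p53 targets and inhibitors of cyclin-dependent kinases 4 rose and 1 fell, SESN1. The share that passed was 21.7%, against 8.38% of all genes tested. CDKN1A (p21) was at 117, 164, 258, 299.6 and 247 CPM (slope 0.31 ± 0.070, adjusted p = 0.0362), PLK3 rose from 30.4 to 80.1 CPM, MDM2 from 74.1 to 119 CPM and GADD45A from 97.3 to 150.2 CPM. Without day 0 1 of the 23 rose and 1 fell, without day 1 none passed, and CDKN1A did not pass without day 0, 1 or 3 or with day 5 added.

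None of 72 cytosolic ribosomal protein genes, 28 ribosome biogenesis genes or 24 NRF2 targets passed in edgeR. Unadjusted, 13, 4 and 2 of them were higher and 1, 0 and 4 lower at p under 0.05. Of all 18796 genes 5284 were so in either direction. DESeq2 called 4, 3 and 2. Of 40 nuclear-encoded respiratory chain genes COX5B passed (slope 0.098 ± 0.025) and of 13 mitochondrially encoded genes MT-ATP8, which overlaps its neighbour MT-ATP6 (slope 0.12 ± 0.027). Of 19 immediate early genes 4 rose, JUNB and KLF6 among them (169.5 to 389.6 CPM for KLF6), and of 27 lysosome genes 5 rose. Of 25 YAP targets 4 rose and 2 fell (AJUBA and IGFBP3), and of 15 Notch genes 2 rose. The shares of these 4 lists that passed were 21.1, 18.5, 24 and 13.3%, against 8.38% of all genes tested. Without day 0 no immediate early, lysosome, YAP or Notch gene rose. Of 19 genes of TGF-beta signalling 6 rose and 1 fell, a share of 36.8% against 8.38% of all genes tested. INHBA, the activin subunit, was at 190.5, 326, 436, 526 and 477 CPM (slope 0.33 ± 0.065, adjusted p = 0.0245), TGFB1 rose from 57 to 93.8 CPM, SMAD3 from 49.1 to 80.04 CPM, TGFBR2 from 125 to 197 CPM and ID1 from 22.4 to 56.8 CPM, and TGFBI fell. Without day 0 none of the 19 rose and 2 fell, and without day 1 none rose and 1 fell. None of INHBA, TGFB1 and TGFBR2 passed without day 0, 1 or 3.

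**Figure D2:**
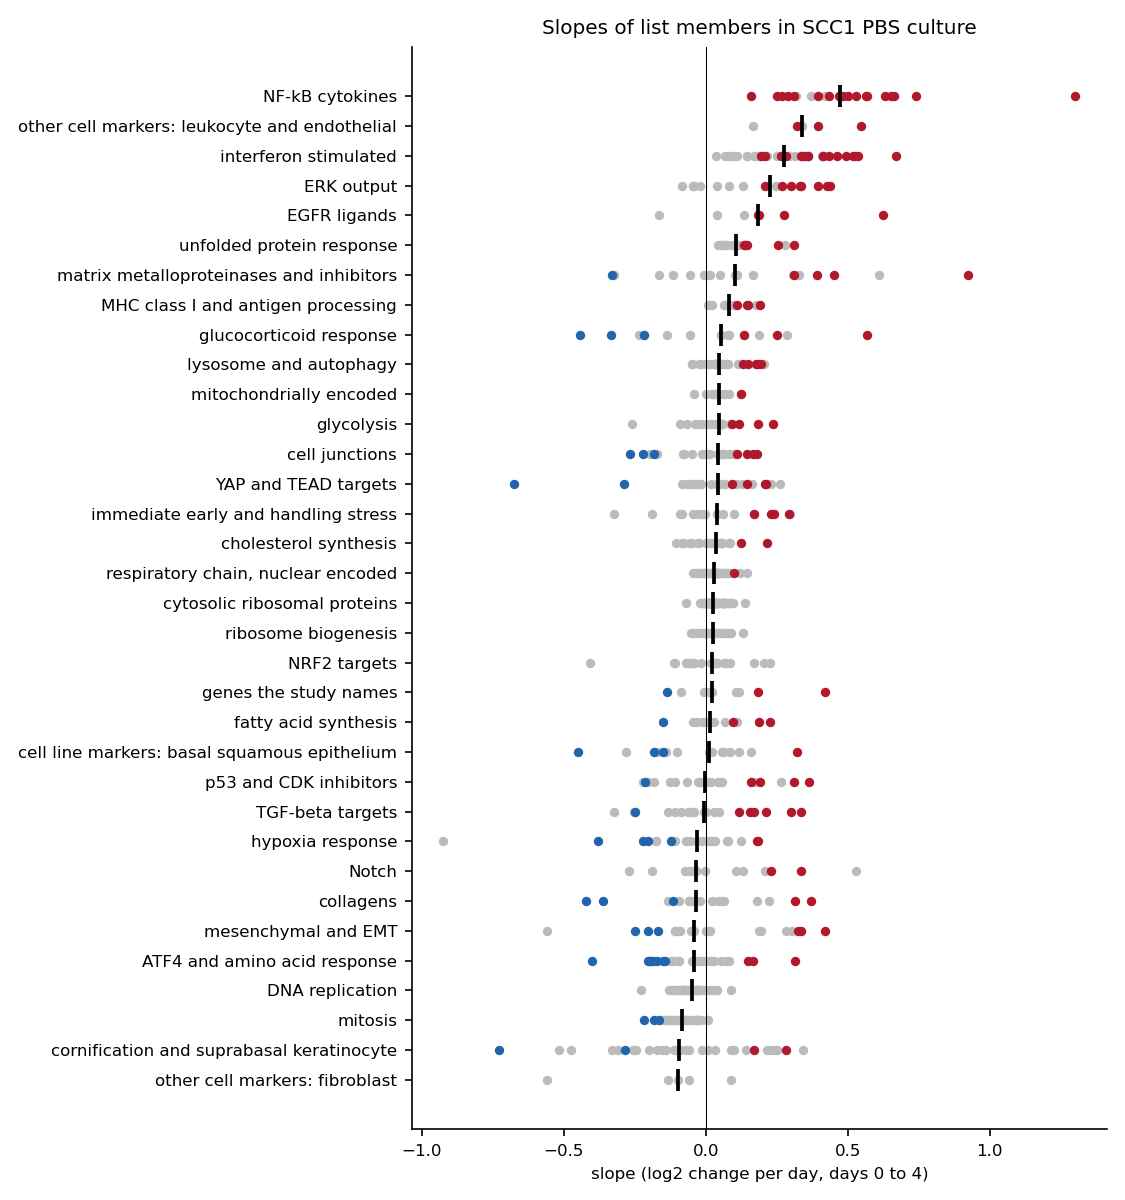
Slope over days 0 to 4 (log2 change per day) of each tested member of 34 gene lists in SCC1 PBS culture; red and blue points rose or fell at an adjusted p under 0.05, grey points did not pass, and black bars are list medians. The cytokine list lies furthest right, with 19 of 22 members in red and a median of 0.47, while the housekeeping lists lie near 0 in grey.

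Among the 9 genes the study names, VIM and VEGFA rose, IGF1R fell and the other 6 did not pass. Without day 0 none of the 9 passed, and none without day 1. The call of VEGFA was also lost without day 3 and with day 5 added. TFAP2A, the transcription factor the study followed, was at 99.4, 107, 99.8, 105 and 108 CPM, with a slope of 0.023 ± 0.023 (adjusted p = 0.554). ERBB2 was at 112 CPM on day 0 and 109.9 on day 4 (slope -0.0042 ± 0.021), and AXL was at 203 CPM on day 0 and 288 CPM on day 3 (adjusted p = 0.0835). The sign of both slopes turned with the scaling, TFAP2A's to -0.0076 with total counts alone and ERBB2's to 0.00044 with DESeq2 size factors. FGFR1 and TGFBR3 had slopes of 0.12 ± 0.094 and -0.089 ± 0.046 (adjusted p = 0.453 and 0.25).

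Markers named for other cell types that rose were CD14 (1.14 to 5.03 CPM), CD68 (18.9 to 37.3 CPM) and KDR (5.403 to 14.6 CPM), 3 of the 5 tested leukocyte and endothelial markers. PTPRC, CD3E, LYZ and CDH5 had at most 4 counts in any library, and PECAM1 and VWF were below 1 CPM. CD68 did not pass without day 0, 1 or 3 and CD14 not without day 1. None of 5 tested fibroblast markers passed by edgeR or by DESeq2, and 2 were lower at an unadjusted p under 0.05.

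The PBS course of another line allowed a comparison over the same 5 days. SCC25 is a head and neck squamous carcinoma line, seeded at lower number, whose PBS libraries of days 0 to 4 lie on 1 flow cell, another than that of SCC1, with other SCC25 libraries. The difference of the slopes, SCC1 minus SCC25, was tested with line, day and their interaction in 1 fit. Of 21000 genes tested 738 differed (3.51%), 357 with the higher slope in SCC1 (1.7%) and 381 with the lower (1.81%). At an unadjusted p under 0.05 3949 of the 21000 differed, in either direction. Scaled by total counts alone 311 were higher and 540 lower. With day as a block, since libraries of the same day deviated together in both lines, 1560 differed, 901 higher and 659 lower. Counts without 1 library ran from 142, without SCC25 day 4, which was in another lane than days 0 to 3, to 1592, without SCC1 day 4. They were 222, 421 and 351 without SCC25 day 0, 1 or 3 and 261, 434 and 348 without SCC1 day 0, 1 or 3. The SCC1 libraries are those of the first fit, so the SCC1 slopes here are not new evidence.

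Some cytokine genes rose more in SCC1 than in SCC25, and no interferon-stimulated gene passed the test of the difference. Of the 22 cytokine genes 4 had a higher slope in SCC1 and none a lower one. One of the 4 is CSF3, which was at no more than 0.0612 CPM in SCC25, too few counts for a slope, so the comparison rests on the other 3, CXCL1, CXCL2 and IL11. At an unadjusted p under 0.05, 11 of the 22 were higher. CXCL1 in SCC25 was at 4.24, 4.18, 5.06, 5.18 and 3.698 CPM, a slope of -0.0012, and the difference was 0.66 ± 0.083 (adjusted p = 0.00219). CXCL2 and IL11 differed by 0.48 ± 0.10 and 0.29 ± 0.059 (adjusted p = 0.0264 and 0.0192). CXCL8 was at 2.49, 1.85, 3.49, 9.26 and 10.6 CPM in SCC25, and its difference of -0.094 ± 0.10 did not pass (adjusted p = 0.685), nor did that of LIF (0.17 ± 0.086, adjusted p = 0.309). None of 42 interferon-stimulated genes passed, with 6 higher and 4 lower at an unadjusted p under 0.05, and the median slopes were 0.28 in SCC1 and 0.18 in SCC25.

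Many of the amino acid genes had lower slopes in SCC1. Of 30 genes 15 had a lower slope in SCC1 and 1, ATF5, a higher one. PHGDH was at 36.6, 60.3, 80.3, 88.8 and 83.4 CPM in SCC25 and differed by -0.48 ± 0.072 (adjusted p = 0.00543). ASNS differed by -0.52 ± 0.075 and PSAT1 by -0.48 ± 0.077 (adjusted p = 0.00434 and 0.00717), and NUPR1 by -0.73 ± 0.083 (adjusted p = 0.00109). The median slope of the list was -0.041 in SCC1 and 0.13 in SCC25.

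Some epithelial genes had lower slopes in SCC1. Of 40 cornification genes tested in the joint fit 10 had a lower slope in SCC1 and none a higher one, with 16 lower and 3 higher at an unadjusted p under 0.05. KRT13 in SCC25 was at 4.99, 9.83, 16.9, 31.1 and 64.7 CPM, against a fall in SCC1, and the difference was -1.64 ± 0.11 (adjusted p = 4.30e-05). ALPP and NPNT differed by -1.20 ± 0.12 and -0.96 ± 0.085 (adjusted p = 8.44e-04 and 5.76e-04). LY6D, a squamous surface protein, was at or under 0.571 CPM in SCC1, too few counts to compare its slope. KRT6A and TP63 differed by -0.38 ± 0.060 and -0.26 ± 0.043 (adjusted p = 0.00692 and 0.00731).

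Of 19 ERK output genes 6 had a higher slope in SCC1 and 1 a lower one, DUSP4 by 0.44 ± 0.091 (adjusted p = 0.0213), and HBEGF differed by 0.38 ± 0.095 (adjusted p = 0.0456). MMP1, at 115, 63.1, 53.2, 69.5 and 82.6 CPM in SCC25, differed by 1.01 ± 0.16 (adjusted p = 0.00717) and IL13RA2, a decoy receptor at 0.2196 to 2.44 CPM in SCC1, by 0.80 ± 0.12 (adjusted p = 0.00573). VIM was at 1163, 1178, 1219, 974 and 821 CPM in SCC25 and differed by 0.55 ± 0.085 (adjusted p = 0.00594). COL6A2 and COL6A1 differed by 0.43 ± 0.044 and 0.35 ± 0.044, both higher in SCC1, and IGFBP3, IGF2, COL5A1, SPARC, TSC22D3, FKBP5 and PKP1 by -1.02 ± 0.11, -0.42 ± 0.092, -0.35 ± 0.062, -0.28 ± 0.066, -0.56 ± 0.059, -0.28 ± 0.050 and -0.37 ± 0.041, all lower in SCC1.

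**Figure D3:**
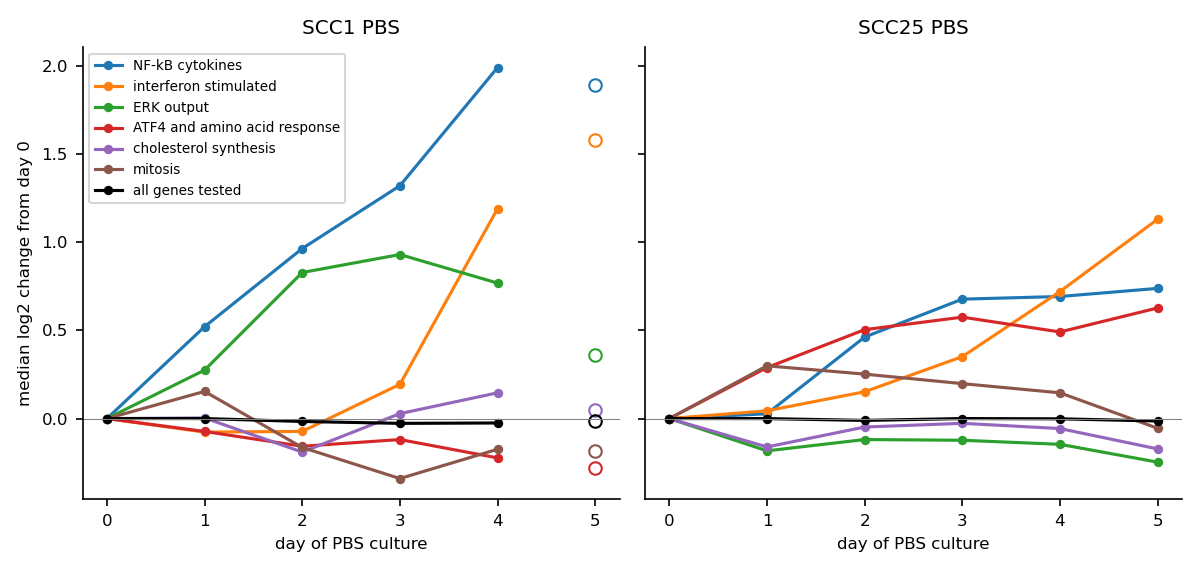
Median log2 change from day 0 of 6 gene lists and of all genes tested (black) against day of PBS culture in SCC1 (left; open points are the day 5 library from another flow cell) and SCC25 (right; all 6 days on 1 flow cell). In SCC1 the cytokine list reaches 1.99 and the interferon list 1.19 on day 4, and the ATF4 list lies below 0 in SCC1 and above it in SCC25.

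Cetuximab-treated SCC1 cells give the other comparison, over days 1 to 4, since no cetuximab library of day 0 was used. Over these days the PBS and cetuximab libraries lie on separate flow cells, so treatment and flow cell cannot be told apart in level. The slopes are each within a flow cell. The PBS library of day 5, not used in this fit, lies on the flow cell of the cetuximab libraries. Of 19351 genes tested 128 had slopes that differed, PBS minus cetuximab (0.661%), 38 higher with PBS (0.196%) and 90 lower (0.465%). At an unadjusted p under 0.05 2016 of the 19351 differed, in either direction. With day as a block 470 differed, 205 higher and 265 lower. The count was 2 without cetuximab day 1, 2 without cetuximab day 4, which was in another lane than days 1 to 3, 16 without PBS day 1 and 218 without PBS day 4. It was 55, 52 and 51 without cetuximab day 2, cetuximab day 3 or PBS day 3.

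Some cytokine genes had a flatter course with cetuximab. Of 22 cytokine genes 6 had a higher slope with PBS and none a lower one, with 11 higher and 1 lower at an unadjusted p under 0.05. CSF3 was at 1.25, 0.499, 0.719 and 0.8601 CPM on days 1 to 4 with cetuximab, against 8.54, 19.4, 46.4 and 121 CPM with PBS, and the difference of slopes was 1.45 ± 0.16 (adjusted p = 0.00875). CXCL1 was at 12.7, 7.75, 12.5 and 11.2 CPM with cetuximab and differed by 0.79 ± 0.11 (adjusted p = 0.0182), and CXCL8, at 19.9, 24.3, 28.5 and 21.7 CPM, by 0.52 ± 0.086 (adjusted p = 0.0352). CXCL2, IL11 and LIF differed by 0.61 ± 0.086, 0.58 ± 0.079 and 0.55 ± 0.070 (adjusted p = 0.0182, 0.0175 and 0.0135). The interferon-stimulated genes had median slopes of 0.43 with PBS and 0.47 with cetuximab, and none of 42 passed the test of the difference (1 higher and 3 lower at an unadjusted p under 0.05).

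VIM was at 23.4, 13.5, 13.3 and 8.81 CPM with cetuximab and at 117, 223, 259 and 254 CPM with PBS, a difference of slopes of 0.78 ± 0.13 (adjusted p = 0.0385). Of 18 collagens 2 had a higher slope with PBS, COL6A2 by 0.75 ± 0.072 and COL6A1 by 0.53 ± 0.066 (adjusted p = 0.00383 and 0.0129), and 8 a lower one, among them COL5A1 by -0.70 ± 0.066 and COL7A1 by -0.55 ± 0.062 (adjusted p = 0.00383 and 0.00875). KRT13 was at 74.3, 101, 126 and 218 CPM with cetuximab and differed by -1.31 ± 0.17 (adjusted p = 0.0163), KRT6A at 450.4, 590.4, 908 and 1230 CPM and by -0.86 ± 0.074 (adjusted p = 0.00383). ALPP, NPNT and PKP1 differed by -1.23 ± 0.18, -1.12 ± 0.10 and -0.61 ± 0.043, SPARC, IGF2 and IGFBP3 by -0.48 ± 0.055, -0.80 ± 0.12 and -0.89 ± 0.15, all lower with PBS. None of the 30 amino acid genes passed, with 1 higher and 4 lower at an unadjusted p under 0.05.

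**Figure D4:**
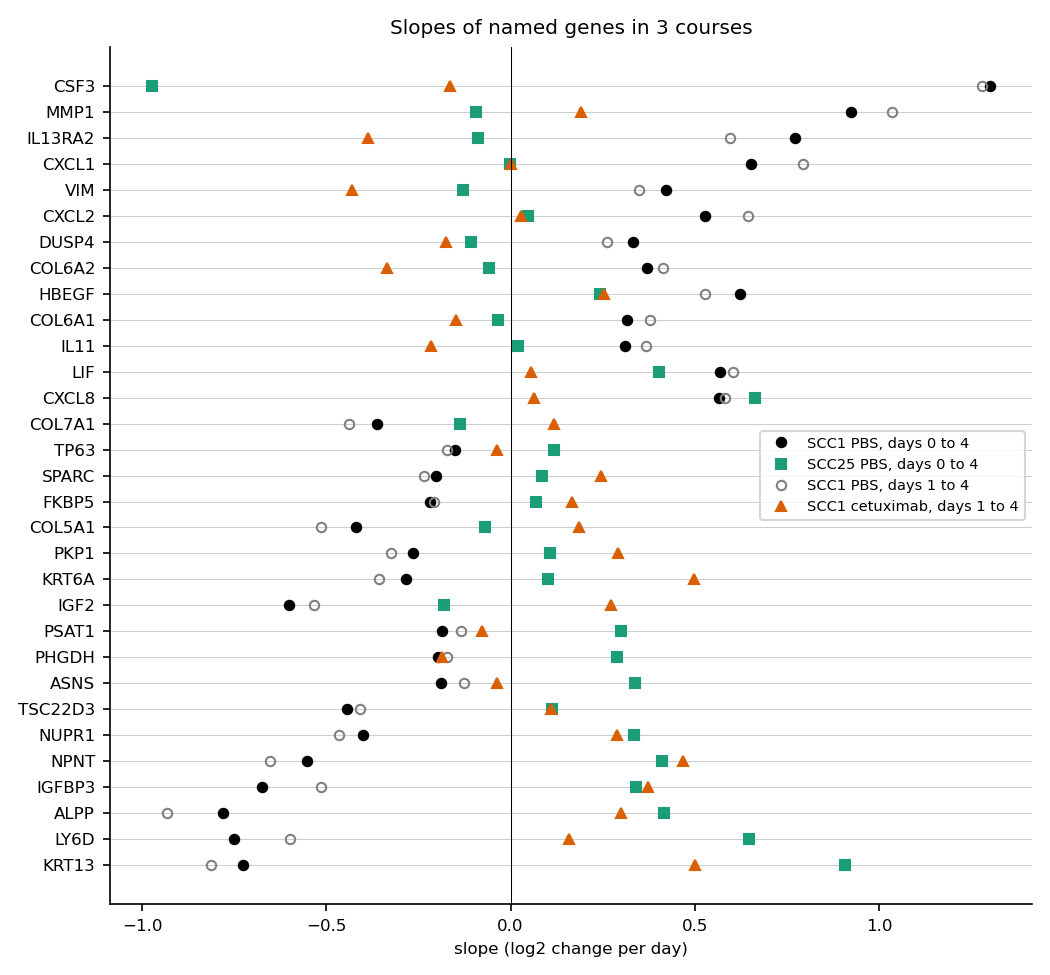
Slope (log2 change per day) of 31 named genes in SCC1 PBS over days 0 to 4 (black circles) and days 1 to 4 (open grey circles), in SCC25 PBS over days 0 to 4 (green squares) and in SCC1 with cetuximab over days 1 to 4 (orange triangles), ordered by the difference from SCC25. CXCL1 rises at 0.65 per day in SCC1 PBS and lies near 0 in the other 2 courses, and CXCL8 lies well above 0 in both PBS courses; the SCC25 point of CSF3 rests on almost no counts.

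The library of day 5 bears on which of these courses went on, within the limit that flow cell and day cannot be told apart for it. The cytokines stayed high, with CSF3 at 104, IL1B at 727, CXCL1 at 148 and CXCL8 at 271 CPM, and with day 5 added to the fit 18 of 22 rose. The interferon-stimulated genes were higher again, IFI44L at 129.6, IFIT1 at 159.8, OAS2 at 346 and MX1 at 297 CPM, and 31 of 42 rose with day 5 added. The ERK output genes were lower than on day 4, with a median change of -0.27 on the log2 scale, PHLDA1 at 118, SPRY4 at 69.3 and FOSL1 at 145 CPM, and 1 of 18 passed. VIM was at 153 CPM, between its values of days 1 and 2. The keratins stood near their values of day 0, KRT5 at 722, KRT13 at 6.98 and KRT6A at 201 CPM. IGF2 and PHGDH were at 28.5 and 86.2 CPM, still below their values of days 0 and 1. With day 5 added 474 genes of 19045 passed in all. The flow cell of day 5 also holds the SCC1 cetuximab libraries. In those of days 1 to 4, scaled apart from day 5, CSF3 was at 0.499 to 1.25 CPM and CXCL8 at 19.9 to 28.5 CPM. VIM was at 8.81 to 23.4, KRT6A at 450.4 to 1230 and IFI44L at 13.05 to 131.3 CPM. Differences in level within that flow cell were not tested.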

How the data were processed

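Poly(A) RNA-seq had been run on 33 libraries of 3 cell lines. The authors deposited 1 table of estimated counts for 56470 genes, and the submitters' processing notes name Salmon 0.8.2 and the build hg19 (GRCh37). Of its values 63.2% are whole, and they were rounded here. The members and the gene lists were chosen with earlier results of these data known. Genes were filtered by edgeR's filterByExpr, scaled by TMM and fitted with the quasi-likelihood test (edgeR 4.0.16, R 4.3.3), with day as a number and 3 residual degrees of freedom. CPM of day 5 came from a TMM scaling of 6 libraries. Differences of slopes were the interaction with day.

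Libraries of the same day in the 2 groups compared deviated together, with correlations about the group means of 0.131 to 0.379 for SCC25 PBS and 0.285 to 0.425 for SCC1 with cetuximab, so fits with day as a block are given beside those without.

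The genes named were the 12 largest rises and 12 largest falls that passed and moved 1 way at each step, given a mean log2 CPM no lower than 3, leading members of each list, the study's genes and the largest differences. Further list members, such as CXCL2, CXCL3, IL6, IL11, TNFAIP3, ICAM1, IFIT1, MX1, ISG15, PHGDH, FOSL1 and PLAU, were named after their values were seen. Alternatives were DESeq2 1.42.0, its size factors, total counts, no filter, a slope of at least 0.25, a GC term, each library left out, day 5 added, the log2 of day plus 1 and a spread shared by all SCC1 libraries. On simulated counts for the SCC1 PBS slope (18348 genes), 95% of slopes of 0.3 and 38% of slopes of 0.15 were recovered, with 15 false calls of 148. For the difference from SCC25 PBS (20209 genes) 74% and 8% were recovered, with 9 false calls of 91, and for that from cetuximab (18898 genes) 39% and 1%, with 10 false calls of 50. The simulated courses were straight lines with independent scatter, without a step between lanes or deviations shared by a day. These shares therefore need not hold for the curved courses of the data. Depth was 36337093 to 47225163 counts.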

Additional observations from a re-analysis of the deposited data

Results flagged for a closer look

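With 5 days a library was marked as standing apart where its gap to the nearest of the others, divided by the whole range, passed Dixon's critical value of 0.71. Of 156 named genes 7 did so. Chance marks about 1 in 20 where the values are independent draws from 1 normal distribution. Here they are a course over days, in genes named partly for their trend or after their values were seen. The 7 therefore cannot be set against that rate. The level of day 4 stood above the others for IFI44L (ratio 0.872), CMPK2 (0.748), OAS2 (0.731), IFIT1 (0.726), MX1 (0.720) and CXCL11 (0.717), and the level of day 0 stood above the others for STC2 (0.717). The 6 interferon-induced genes were higher again in the library of day 5, which lies on another flow cell.

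Slopes that differed between SCC1 PBS and SCC25 PBS by the interaction test are given as differences of log2 change per day. Higher in SCC1 were MMP1 (1.01), IL13RA2 (0.801), CXCL1 (0.658), VIM (0.553), CXCL2 (0.483), DUSP4 (0.442), COL6A2 (0.433), HBEGF (0.384), COL6A1 (0.354) and IL11 (0.294). Lower in SCC1 were KRT13 (-1.64), ALPP (-1.20), IGFBP3 (-1.02), NPNT (-0.960), NUPR1 (-0.731), TSC22D3 (-0.555), ASNS (-0.521), PHGDH (-0.483), PSAT1 (-0.480), IGF2 (-0.419), KRT6A (-0.380), PKP1 (-0.368), COL5A1 (-0.346), FKBP5 (-0.284), SPARC (-0.283) and TP63 (-0.265). The fitted values of CSF3 (2.28) and LY6D (-1.43) are no measure of a difference, since CSF3 was at no more than 0.0612 CPM in SCC25 and LY6D at no more than 0.571 CPM in SCC1, and they depend on the prior count.

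Slopes that differed between PBS and cetuximab in SCC1 over days 1 to 4 were higher with PBS for CSF3 (1.45), CXCL1 (0.791), VIM (0.779), COL6A2 (0.748), CXCL2 (0.614), IL11 (0.584), LIF (0.548), COL6A1 (0.528) and CXCL8 (0.517). They were lower with PBS for KRT13 (-1.31), ALPP (-1.23), NPNT (-1.12), IGFBP3 (-0.889), KRT6A (-0.855), IGF2 (-0.805), COL5A1 (-0.699), PKP1 (-0.614), COL7A1 (-0.554) and SPARC (-0.480). Over those days the 2 arms lie on separate flow cells, and the part of the flow cell in these differences was not tested.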

How the results depend on the processing

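For the SCC1 PBS slope, where 1575 genes passed, 2585 passed by DESeq2, 531 with a slope of at least 0.25, 474 with day 5 added, 2734 on the log2 of day plus 1, 2745 with a spread shared by all SCC1 libraries and 117 to 2774 with 1 library left out. DESeq2 size factors, total counts, no filter and the GC term gave 1686 to 2286. For the difference from SCC25 PBS (738) the counts were 1426 by DESeq2, 1201 with no filter, 429 with a difference of at least 0.25, 1177 with the GC term, 1560 with day as a replicate block and 142 to 1592 with 1 library left out. For the difference from cetuximab (128) they were 320, 592 with no filter, 470 with the replicate block and 2 to 218 with 1 library left out. None of the 137 named genes that passed turned in sign under any of these. Among the 19 that did not pass, signs turned for EGFR and TFAP2A with total counts (-0.021 and -0.0076), for EGR1, IFI6 and IRF1 without day 4 (range with 1 library left out -0.318 to 0.0411, -0.383 to 0.634 and -0.0329 to 0.0573), for MCM2 without day 0 (-0.0804 to 0.0237) and for the slope of ERBB2 by DESeq2 (0.000465), its size factors (0.000438), no filter (0.00407), without day 4 (-0.00872 to 0.00528), day 5 added (0.00574) and the shared spread (0.00307). The cause was not tested. The effect of depth on these counts was not tested.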
